A study of Bos taurus with 15 samples.

Results

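The cartilage matrix genes ACAN, HAPLN1, COMP, CHAD, CILP2 and SCRG1 were followed through an RNA sequencing study of engineered meniscus. These 6 were set by gene symbol, with earlier results of these data known. Shares of all tested genes are given beside their counts for scale and do not test the set. Each symbol named 1 row of the deposited table of 38001 bovine genes, and all 6 passed the filter on low counts that left 11834 genes for testing. The cells were fibrochondrocytes from bovine meniscus, which make the collagen and proteoglycan of that tissue, cultured to day 28. Anchored tissues were cast in a mold with post anchors and unanchored tissues in a mold without them, and both were divided into a post and a middle region. This gave anchored post, anchored middle, unanchored post and unanchored middle, and cells in collagen without any mold formed the no-mold group, with 3 libraries in each of the 5 groups. For the first 3 days all groups were kept in medium containing 10% fetal bovine serum, and for the next 25 days in a chondrogenic medium with dexamethasone, ascorbic acid at 50 µg/ml and the growth factor TGF-β3 at 10 ng/ml. Each region was cut further into pieces before extraction, and the labels do not say whether the libraries of a group came from separate tissues or animals, so p-values rest on the spread among these libraries and that spread may be technical.

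Aggrecan, the product of ACAN, is a large core protein that carries chondroitin sulfate and keratan sulfate chains and holds the water that lets cartilage resist compression. It is held on hyaluronan by the link protein that HAPLN1 encodes. COMP, cartilage oligomeric matrix protein, belongs to the thrombospondin family and binds collagen fibrils, CHAD encodes chondroadherin, a leucine-rich repeat protein that binds cells and collagen, and CILP2 belongs to the cartilage intermediate layer protein family. SCRG1, also called stimulator of chondrogenesis, encodes a small secreted protein that is made in cartilage and in the nervous system. The inner meniscus is richer in aggrecan than the fibrous outer zone.

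Levels are counts scaled to a library of 1000000 by TMM (CPM below), a value that corrects for library size and composition but not for gene length, so that each gene is compared across groups and not with another gene. Library totals ran from 2060781 to 7415701 counts, and the shallowest were no mold 1 (2060781) and 3 (2128257) and anchored middle 2 (2986944). Fibrochondrocyte markers (COL1A1, COL1A2, COL2A1, SOX9 and FMOD) summed to 14382 to 29951 CPM (of the library total) in every library. COL1A1 and COL1A2 made up most of these sums. The endothelial markers PECAM1, VWF, CDH5 and KDR summed to at most 1.00, and SOX10, a transcription factor of Schwann cells, had 1 count over all libraries. The leukocyte list, with CD14 as its 1 tested gene of 4, summed to 4.25 to 8.29 CPM, and PTPRC had 25 counts in all. In bulk RNA of this kind, fewer cells that express a gene and less RNA per cell cannot be told apart.

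ACAN (ENSBTAG00000016158) stood at 99.4, 63.6 and 98.9 CPM in anchored post libraries 1, 2 and 3, and at 141, 256 and 179 in anchored middle. In unanchored tissue it stood at 97.1, 95.2 and 46.9 CPM at the post and at 173, 186 and 85.1 in the middle, and without a mold at 269, 211 and 158. The post libraries were all below 100 CPM, and the only other library below that level was unanchored middle 3. Group means were 87.3 ± 20.5 CPM in anchored post, 192 ± 58.4 in anchored middle, 79.7 ± 28.5 in unanchored post, 148 ± 54.9 in unanchored middle and 213 ± 55.3 in no mold (SD, n = 3 each). In falling order the groups ran no mold, anchored middle, unanchored middle, anchored post, unanchored post, and each neighbouring pair in this order overlapped.

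COMP (ENSBTAG00000004630) had 772, 624 and 764 CPM in anchored post and 1481, 3219 and 1868 in anchored middle. In unanchored post it had 658, 717 and 369 CPM, against 1431, 1947 and 798 in unanchored middle, and no-mold libraries had 2599, 1469 and 1317. All 6 post libraries lay below all 9 others. Anchored middle 2, one of the shallow libraries, was the highest of the 15, and unanchored middle 3 was the lowest outside the posts. Means were 720.04 ± 83.6 CPM in anchored post, 2189 ± 912 in anchored middle, 581 ± 186 in unanchored post, 1392 ± 576 in unanchored middle and 1795 ± 700.4 in no mold (SD, n = 3 each). The falling order was anchored middle, no mold, unanchored middle, anchored post, unanchored post, and the sole neighbours without overlap were unanchored middle and anchored post.

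HAPLN1 (ENSBTAG00000012411) varied less. Its anchored post libraries had 305, 287 and 267 CPM, and those of anchored middle 368, 672 and 429. Unanchored post libraries had 284, 293 and 278 CPM, against 361, 439 and 344 in unanchored middle, and no-mold libraries 515, 449 and 448. The 6 post libraries lay in a narrow band below every other library. Means were 286 ± 18.7 CPM in anchored post, 490.0 ± 161 in anchored middle, 285 ± 7.31 in unanchored post, 381 ± 50.8 in unanchored middle and 471 ± 38.6 in no mold (SD, n = 3 each). In falling order, anchored middle overlapped no mold, no mold lay wholly above unanchored middle, that group lay wholly above anchored post, and anchored post overlapped unanchored post.

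CHAD (ENSBTAG00000021302) had 37.5, 27.9 and 32.5 CPM in anchored post and 71.5, 92.0 and 69.3 in anchored middle. It had 35.3, 39.6 and 17.99 CPM in unanchored post, against 74.3, 75.7 and 40.3 in unanchored middle, and 174, 147 and 85.8 in no mold. All post libraries were below all middle libraries, and no mold 1 and 2 were above every molded library. Its means were 32.6 ± 4.76 CPM in anchored post, 77.6 ± 12.5 in anchored middle, 31.0 ± 11.4 in unanchored post, 63.4 ± 20.1 in unanchored middle and 135 ± 45.0 in no mold (SD, n = 3 each). The groups followed the same falling order as for ACAN, and the one gap between neighbours was that of unanchored middle over anchored post.

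CILP2 (ENSBTAG00000014969) had the narrowest range, with a highest library 2.46 times the lowest. Anchored post libraries had 325, 210.4 and 329 CPM and those of anchored middle 396, 423 and 518. Unanchored post libraries had 284, 341 and 237 CPM, against 444, 466 and 338 in unanchored middle, and no-mold libraries 492, 402 and 342. The anchored regions did not overlap, whereas unanchored post 2 was just above unanchored middle 3. Group means were 288 ± 67.2 CPM in anchored post, 446 ± 64.3 in anchored middle, 287 ± 52.4 in unanchored post, 416 ± 68.3 in unanchored middle and 412 ± 75.6 in no mold (SD, n = 3 each). In falling order, anchored middle, unanchored middle and no mold overlapped their neighbours, all of no mold lay above anchored post, and anchored post overlapped unanchored post.

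SCRG1 (ENSBTAG00000012535) was the gene with the fewest counts, 667 over the 15 libraries. It had 6.70, 9.13 and 6.28 CPM in anchored post and 9.07, 14.4 and 8.32 in anchored middle. Unanchored post libraries had 7.22, 7.41 and 4.50 CPM, against 6.80, 9.31 and 2.79 in unanchored middle, and no-mold libraries 17.2, 16.9 and 15.4. The no-mold libraries lay above all 12 molded ones, with means of 7.37 ± 1.54 CPM in anchored post, 10.6 ± 3.30 in anchored middle, 6.38 ± 1.63 in unanchored post, 6.30 ± 3.29 in unanchored middle and 16.5 ± 0.983 in no mold (SD, n = 3 each). Below no mold the falling order was anchored middle, anchored post, unanchored post, unanchored middle, and neighbours there overlapped. The lowest value, unanchored middle 3, rests on 16 counts, with an exact 95% Poisson interval of 9.15 to 26.0 counts that covers counting error only. Of the counts, 25.2% sat in library values that are not whole, as when a read is shared among genes. This share was 32.1% for HAPLN1, 9.23% for COMP, 4.67% for CILP2 and 0% for ACAN and CHAD. Here and below it takes the whole value of such a library, so it is not the share of reads that were divided among genes. For HAPLN1 in anchored post 3, for example, that value was 2042.5 counts.

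**Figure D1:**
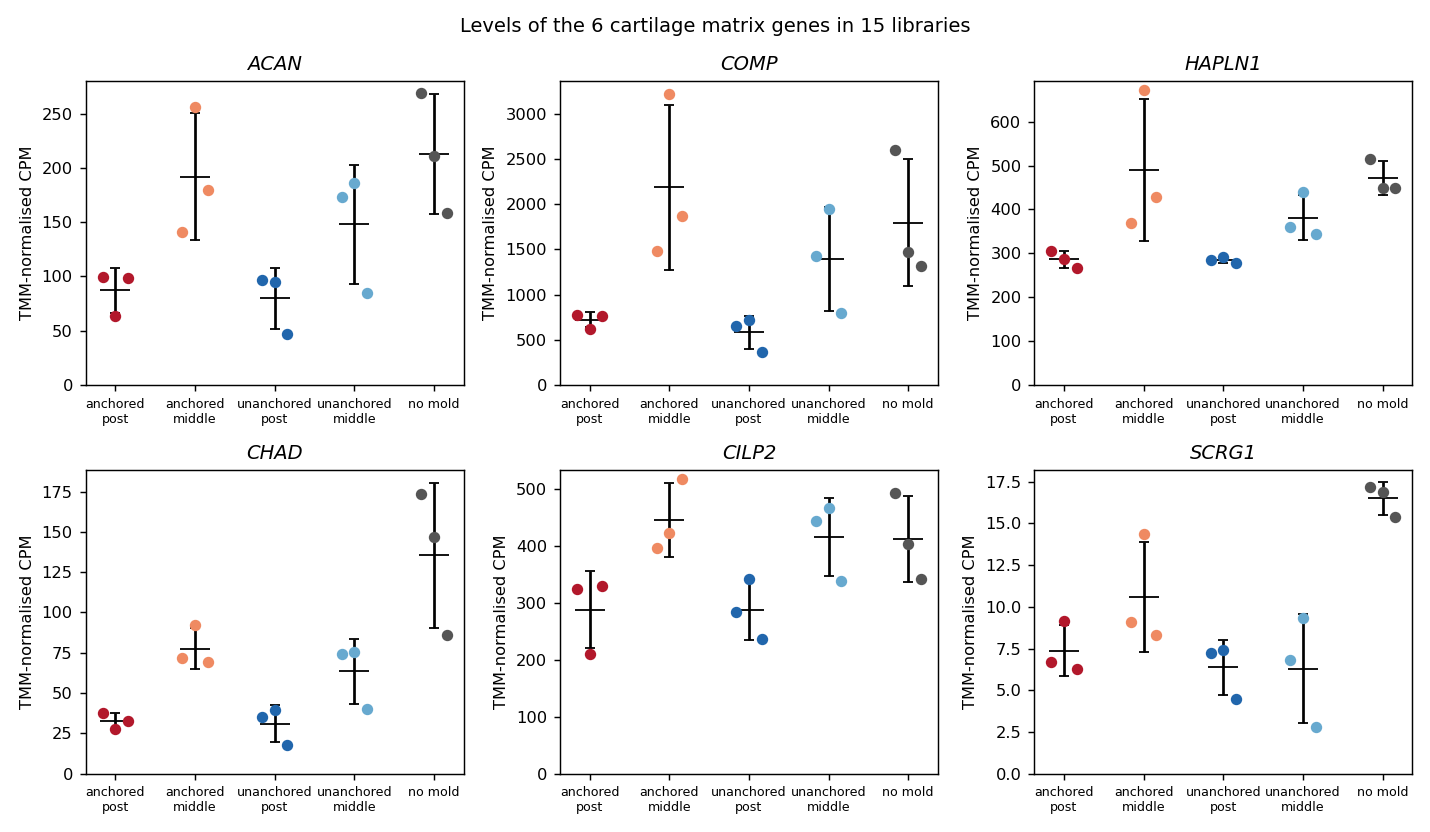
TMM-normalised CPM of the 6 genes (linear axes from 0), 1 point per library, with the mean and SD of 3 libraries per group. The 6 post libraries of COMP, HAPLN1 and CHAD lie below all middle libraries, and the 3 no-mold libraries of SCRG1 lie above all molded ones.

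The libraries of a group differed more for these genes than for most. The quasi-dispersion, edgeR's measure of spread between libraries of a group after counting noise, was 6.17 times the value of genes of like abundance for ACAN and 5.91 times for COMP. It was 4.42 times for CHAD, 2.38 for CILP2, 1.92 for HAPLN1 and 1.85 for SCRG1, against a median of 0.988 over all tested genes, and each of the 6 stood above at least 96.7% of them. This spread was shared: after the group means were taken out, log2 levels of ACAN and COMP correlated at r = 0.94 over the 15 libraries, those of ACAN and CHAD at 0.93 and those of COMP and CHAD at 0.87. HAPLN1 and CILP2 were the least alike in this respect (r = 0.21), and SCRG1 and CILP2 followed (0.27). These coefficients describe 15 libraries that share groups, depth and normalisation.

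The comparison of post with middle asked how the regions of a tissue differ. Of the 6 genes, 5 were lower at the post. Averaged over mold types, COMP had a log2 fold change of -1.43 (standard error 0.207), and its Benjamini-Hochberg adjusted p was 0.000121 by the quasi-likelihood test of edgeR, which gives all adjusted p-values below unless another tool is named. CHAD stood at -1.14 (standard error 0.172, edgeR adjusted p = 0.000218) and ACAN at -1.01 (standard error 0.187, edgeR adjusted p = 0.00164). The link protein gene HAPLN1 stood at -0.59 (standard error 0.105, edgeR adjusted p = 0.000981) and CILP2 at -0.58 (standard error 0.116, edgeR adjusted p = 0.00283). SCRG1 had a log2 fold change of -0.22 with a 95% interval of -0.64 to 0.19 and did not pass (edgeR adjusted p = 0.546). Of all tested genes, 5.19% were called lower in this comparison, against 5 of these 6, and the median log2 fold change was -0.80 for the 6 and -0.01 for all tested genes. The 6 post and 6 middle libraries did not overlap for COMP, HAPLN1 and CHAD, which is 3 of the 6, against 2.3% of all tested genes lower without overlap. The count of 5 held when any 1 of the 15 libraries was left out. The fibrochondrocyte markers also differed by region, with 3 of 5 called lower at the post (COL1A1, COL1A2 and FMOD) and sums of 14382 to 22273 CPM in post libraries, against 19438 to 29951 in middle libraries. Of COL1A1 counts, 61.4% were in values that are not whole, as were 34.1% of COL1A2 and 54.2% of FMOD counts. Of the skeletal muscle markers, 1 of 2 tested was called higher at the post, ACTA1 (1.02, edgeR adjusted p = 0.042; 89.8% of its counts were in values that are not whole), with sums of 8.83 to 17.7 CPM for the list in post libraries and 7.16 to 11.8 in middle libraries. The part of these markers in the result was not tested.

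Within anchored tissue, 5 of the 6 genes passed as lower at the post, against 1.66% of all tested genes. The same 5 had no overlap between post and middle libraries, where 9.73% of all tested genes were lower without overlap. COMP averaged 720.04 ± 83.6 CPM in anchored post and 2189 ± 912 in anchored middle (SD, n = 3 each), or -1.60 as log2 fold change (standard error 0.293, edgeR adjusted p = 0.0036), and it passed without any 1 library (adjusted p at most 0.0282). HAPLN1 fell by 0.77 (standard error 0.149, edgeR adjusted p = 0.00607), but by 0.48 without anchored middle 2, and its call ended without anchored post 3 (adjusted p = 0.054). CHAD fell by 1.23 (standard error 0.243, edgeR adjusted p = 0.00711), which also failed to pass without anchored post 3 (0.0507). ACAN, which fell by 1.12 (edgeR adjusted p = 0.0267), lost its call without any of 5 libraries: anchored post 1 (adjusted p = 0.0577), 2 (0.112) or 3 (0.0702) and anchored middle 2 (0.0833) or 3 (0.0667). CILP2, which fell by 0.63 (edgeR adjusted p = 0.0468), did so without any of 8, the largest p being 0.238 without anchored middle 3. The count of 5 became 3 without anchored post 1 or 2 or anchored middle 3, and 1 without anchored post 3.

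In unanchored tissue 5 of the 6 genes differed in the same direction, while SCRG1 had means of 6.38 CPM at the post and 6.30 in the middle. Of the 6 genes, 0 passed by edgeR, where 0.38% of all tested genes were called lower, a share that also moves with single libraries. The log2 fold change of COMP was -1.26 (standard error 0.291, edgeR adjusted p = 0.0503), that of CHAD -1.05 (standard error 0.244, adjusted p = 0.0524) and that of ACAN -0.90 (standard error 0.265, adjusted p = 0.121). CILP2 stood at -0.54 (standard error 0.165, adjusted p = 0.139) and HAPLN1 at -0.42 (standard error 0.148, adjusted p = 0.201), while SCRG1 stood at -0.01 (standard error 0.294, adjusted p = 0.996). At an unadjusted p under 0.05, 5 of the 6 passed by edgeR, as did 1648 of the 11834 tested genes, and DESeq2 called 0 of the 6 after adjustment. For HAPLN1, COMP and CHAD the libraries of post and middle did not overlap, where 10.9% of all tested genes were lower without overlap. Single libraries decided the calls: without unanchored middle 3, the library with low COMP, ACAN and CHAD, 3 genes passed (COMP at -1.54, CHAD at -1.28 and ACAN at -1.17, edgeR adjusted p = 0.00851, 0.00851 and 0.0188). The count was also 3 without anchored middle 2, which enters through the shared spread, 2 without anchored post 2 or anchored middle 1 and 1 without no mold 1 or 3.

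The interaction of anchoring and region, the test of whether the regional difference depends on the anchors, passed for 0 of the 6 genes (edgeR; 0 at an unadjusted p under 0.05, and 0 by DESeq2) and for 0% of all tested genes (223 at an unadjusted p under 0.05). Its estimates ran from -0.43 for SCRG1 to -0.09 for CILP2, with a 95% interval for COMP of -1.18 to 0.50. The estimate for SCRG1 was -0.10 without unanchored middle 3, and that for HAPLN1 was -0.35 with all libraries and -0.0584 without anchored middle 2. Mitochondrial transcripts also moved with region, making up 1.76% ± 0.125 and 1.81% ± 0.251 of counts in anchored and unanchored post, against 2.06% ± 0.294 and 2.21% ± 0.144 in anchored and unanchored middle (SD, n = 3 each), and their part in these results was not tested.

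**Figure D2:**
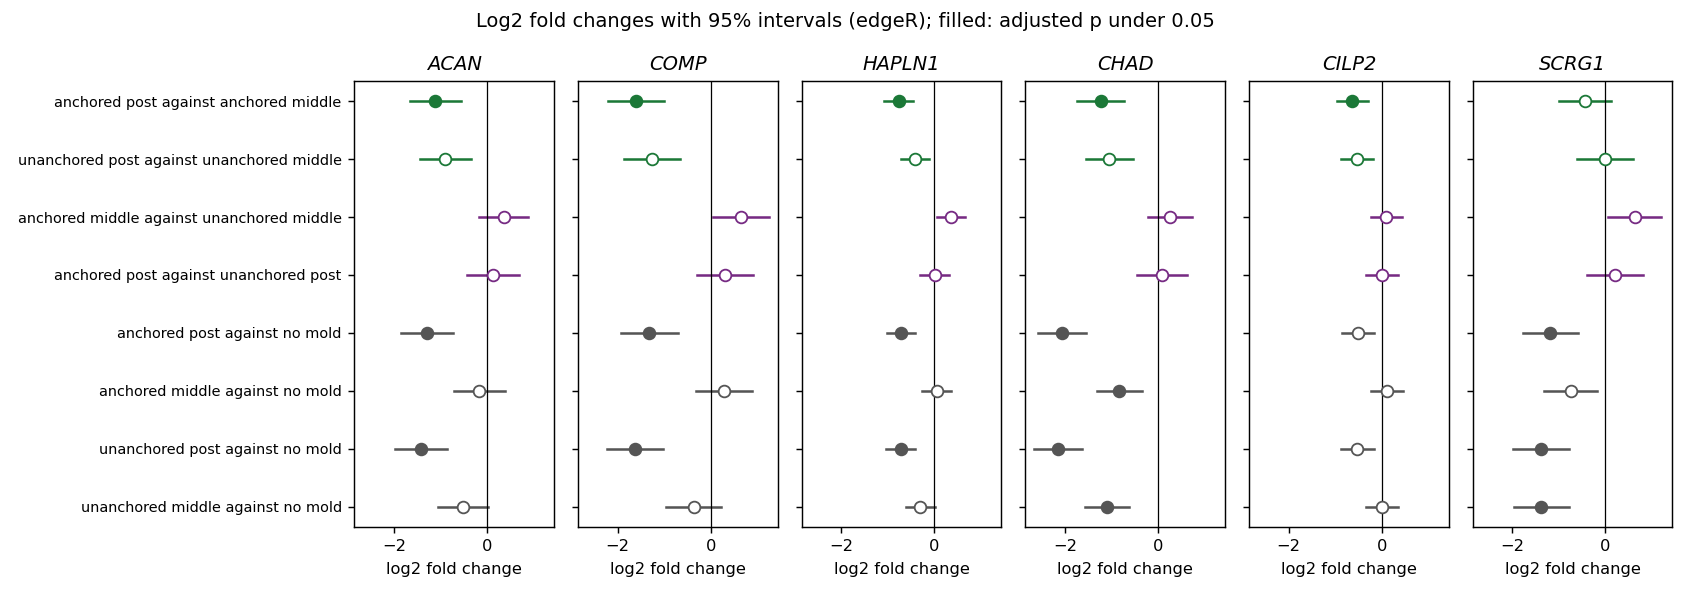
Log2 fold changes (x axis) of each gene in 8 comparisons (rows), with 95% intervals from edgeR; filled points have an adjusted p under 0.05. Filled points for post against middle are in anchored tissue, none is filled between anchored and unanchored tissue, and SCRG1 is filled against no mold in 3 of 4 rows.

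Whether post anchors changed the levels within a region was the next comparison. By edgeR, 0 of the 6 genes passed in either region, as did 0% of the 11834 tested genes, and DESeq2 called 0 of the 6 as well. In the middle, log2 fold changes of anchored against unanchored tissue were all above 0, from 0.10 for CILP2 to 0.63 for SCRG1 (standard error 0.276) and 0.65 for COMP (standard error 0.287). COMP, SCRG1 and HAPLN1 were under an unadjusted p of 0.05 in edgeR, as were 366 of all tested genes, with an adjusted p of 1.00 for each of the 3. Without anchored middle 2 the log2 fold change of COMP was 0.27 and that of HAPLN1 0.0642, and without unanchored middle 3 that of SCRG1 was 0.30. At the post, the estimates lay between 0.01 for CILP2 and 0.31 for COMP (95% interval -0.29 to 0.90), 0 of the 6 were past an unadjusted p of 0.05, and 454 of all tested genes were. For HAPLN1 at the post the estimate was 0.01 with a 95% interval of -0.30 to 0.31.

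The last comparison set molded tissue against cells in unmolded collagen. With the 4 molded groups averaged, CHAD and SCRG1 were called lower whichever 1 library was left out. CHAD averaged 32.6 to 77.6 CPM in the molded groups and 135 in no mold, and the 4 molded groups together stood at -1.53 against no mold as log2 fold change (standard error 0.178, edgeR adjusted p = 4.12e-06). SCRG1 averaged 6.30 to 10.6 CPM in the molded groups and 16.5 ± 0.983 in no mold, which gave -1.17 (standard error 0.23, edgeR adjusted p = 0.00121). Its molded and no-mold libraries did not overlap, where 4.29% of all tested genes were lower without overlap. ACAN fell by 0.84 (edgeR adjusted p = 0.00601), COMP fell by 0.76 (0.0189) and HAPLN1 fell by 0.42 (0.014). CILP2 stood at -0.23 with a 95% interval of -0.50 to 0.04 and did not pass (edgeR adjusted p = 0.255). Of the 6 genes, 5 were called lower, where 7.91% of all tested genes were. Without no mold 1 the count was 2, and the calls of ACAN, HAPLN1 and COMP ended (edgeR adjusted p = 0.089, 0.117 and 0.352), and COMP then stood at -0.38. For COMP DESeq2 gave an adjusted p of 0.1. Cell type markers moved with the mold too. Of the 5 fibrochondrocyte markers, 2 were called lower, COL2A1 and SOX9, which are also on the chondrocyte list. COL2A1 averaged 48.9 to 151 CPM of the library total in the molded groups and 682 in no mold. The chondrocyte markers, all 4 called lower, summed to 141 to 399 CPM in molded libraries and 716 to 1062 in no-mold libraries. COL9A1 among them had 57 counts over all libraries and may have passed the filter only through the no-mold group. The tenocyte and fibroblast markers, 2 of 4 tested called higher, summed to 242 to 326 CPM in molded and 171 to 193 in no-mold libraries. The adipocyte markers, 1 of 2 tested called higher (FABP4), summed to 302 to 519 CPM in molded and 223 to 260 in no-mold libraries. Of 4 tested smooth muscle and mural markers, ACTA2 was called higher and DES lower, with sums of 782 to 1307 CPM in molded and 703 to 899 in no-mold libraries. ACTA2 made up most of these sums, and 85.9% of its counts were in values that are not whole. Their part in the result was not tested.

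Each molded group was also set against no mold on its own. The same 3 no-mold libraries enter all 4 comparisons, so these are not independent. Anchored post had 5 of the 6 genes called lower, where 2.64% of all tested genes were, and unanchored post had 5, where 4.09% were. The one not called was CILP2 in both, with log2 fold changes of -0.52 and -0.52 (edgeR adjusted p = 0.0695 and 0.0515). In anchored post the count was 2 without no mold 1, where COMP (edgeR adjusted p = 0.091), SCRG1 (0.055) and ACAN (0.0503) lost their calls. SCRG1 also lost its call there without anchored post 1 (0.0521) or 3 (0.0569) or no mold 2 (0.0611). In unanchored middle, 2 genes were called lower, where 7.2% of all tested genes were: CHAD at -1.09 (standard error 0.231, edgeR adjusted p = 0.00279) and SCRG1 at -1.37 (standard error 0.285, adjusted p = 0.00245). In anchored middle, 6.2% of all tested genes were called lower and CHAD alone among the 6, at -0.83 (standard error 0.233, edgeR adjusted p = 0.0194). That call ended without anchored middle 1 (0.0612) or 3 (0.0812) or no mold 1 (0.116) or 2 (0.0759), and DESeq2 did not make it (0.105). SCRG1 had a log2 fold change of -0.74 there (edgeR adjusted p = 0.0745), and passed without anchored middle 2 (0.0213) or unanchored middle 3 (0.0279).

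ACAN, COMP, HAPLN1 and CILP2 did not pass between either middle region and no mold. In anchored middle their log2 fold changes were -0.16 for ACAN, 0.29 for COMP, 0.05 for HAPLN1 and 0.11 for CILP2. The 95% interval for COMP was -0.31 to 0.88 and that for HAPLN1 -0.26 to 0.36. In unanchored middle they were -0.52, -0.37, -0.30 and 0.01 in the same order of genes. The no-mold libraries were shallower (2060781 to 4466562 counts, against 2986944 to 7415701 in the molded libraries) and had a mitochondrial share of 1.52% ± 0.186 (SD, n = 3), below the means of the molded groups. The part of these in the results was not tested. Without the 3 shallowest libraries, which leaves 1 no-mold library assumed to vary like the other groups, 2 of the 6 genes were called for the molded groups together.

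Ratios of 2 of the genes within a library do not depend on library scaling, and they showed where the genes parted. There are 15 pairs, and each was tested between post and middle by an exact two-sided permutation of libraries within mold type (400 arrangements, smallest possible p = 0.005), adjusted over the 15. At 0.05, 8 pairs passed. The ratio of COMP to CILP2 was 1.56 to 2.96 at the posts and 2.36 to 7.61 in the middle regions, a mean log2 difference of -0.79 (exact permutation p = 0.005, adjusted p = 0.0187). COMP also fell more than HAPLN1, whose ratio to COMP was 0.350 to 0.754 at the posts and 0.209 to 0.431 in the middle, a mean log2 difference of 0.81 (exact permutation p = 0.01, adjusted p = 0.025). COMP fell more than ACAN as well, with ratios of ACAN to COMP of 0.102 to 0.148 at the posts and 0.0795 to 0.121 in the middle (0.37, exact permutation p = 0.005, adjusted p = 0.0187). The ratio of CHAD to CILP2 differed by -0.56 (exact permutation p = 0.015, adjusted p = 0.0321) and that of HAPLN1 to CHAD by 0.58 (exact permutation p = 0.025, adjusted p = 0.0469). The other 3 pairs that passed were SCRG1 with COMP, CHAD and ACAN, whose ratios to SCRG1 differed between post and middle by -1.20, -0.98 and -0.83 on the log2 scale (exact permutation p = 0.005, 0.005 and 0.01). The ratio of HAPLN1 to CILP2 did not pass (mean log2 difference 0.02, exact permutation p = 0.88).

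The same ratios were set between molded and unmolded tissue, with 455 arrangements of libraries over all molded groups and a smallest possible p of 0.0022. After adjustment over the 15, 4 pairs passed, and all 4 held CHAD, so these are not 4 separate results. The ratio of ACAN to CHAD was 1.97 to 3.05 in the 12 molded libraries and 1.44 to 1.84 in the 3 no-mold libraries, and that of COMP to CHAD was 18.1 to 35.0 in molded and 10.0 to 15.3 in no-mold libraries. Neither range overlapped. Mean log2 differences were 0.63 and 0.75 for these, 1.06 for HAPLN1 to CHAD and -1.27 for CHAD to CILP2 (exact permutation p = 0.0022 for 3 of them and 0.00659 for HAPLN1 to CHAD; adjusted p = 0.011 and 0.0247). The ratio of ACAN to COMP differed by -0.12 (exact permutation p = 0.488).

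**Figure D3:**
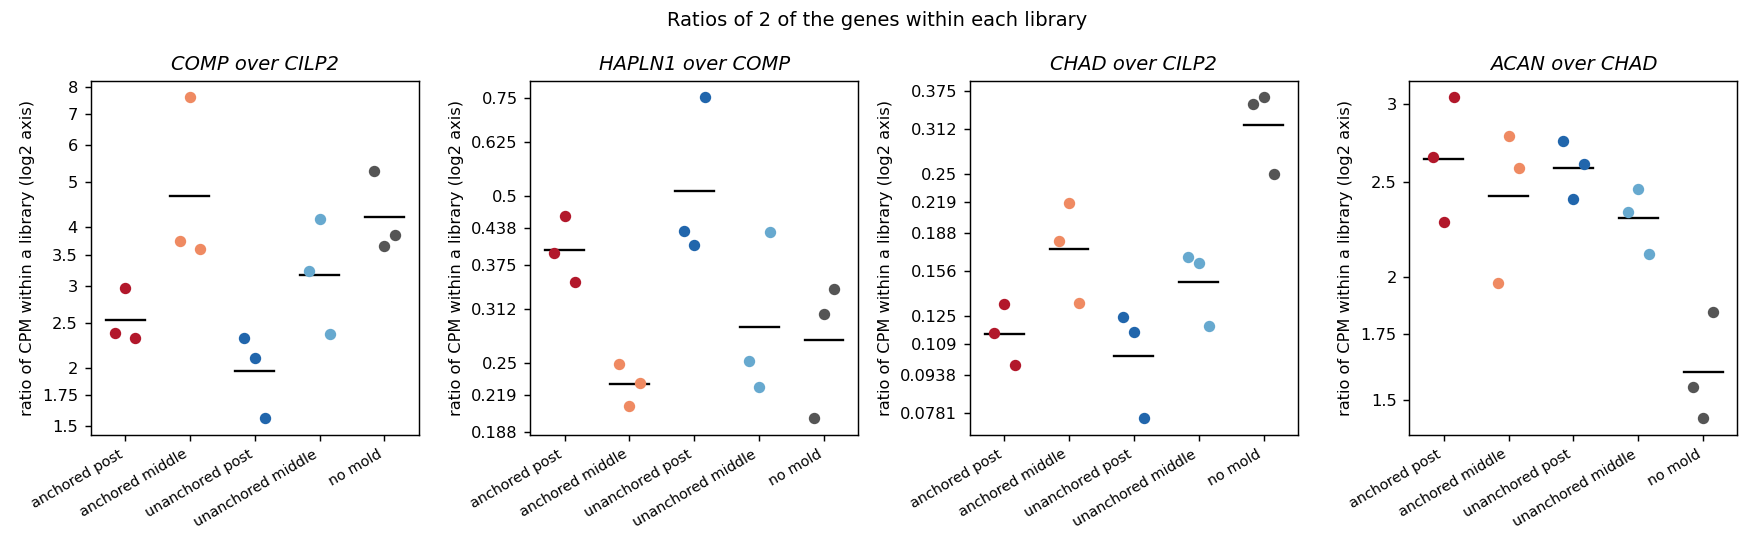
Ratio of the CPM of 2 genes within each library (log2 axis), 1 point per library, with the geometric mean of 3 libraries as a line. COMP over CILP2 is lower at the posts than in the middle regions in each mold type, HAPLN1 over COMP is higher at the posts, and the no-mold libraries stand highest for CHAD over CILP2 and lowest for ACAN over CHAD.

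Other genes of the same matrix were read from lists and are given by counts. Of 11 listed partners of the aggregate of aggrecan and hyaluronan, 5 had enough counts to be tested, and 2 fell and 0 rose at the post, averaged over mold types. These were VCAN, the gene of the related proteoglycan versican, with -0.76 (standard error 0.192, edgeR adjusted p = 0.0158), and HAS2, a hyaluronan synthase, with -0.43 (standard error 0.109, adjusted p = 0.0158). The list's median log2 fold change was -0.23, against -0.01 for all tested genes. CD44, the hyaluronan receptor, stood at 0.18 and did not pass (0.189). In the bovine RefSeq annotation (ARS-UCD2.0), VCAN is a protein-coding neighbour of HAPLN1, and HAPLN3, another link protein gene, is one of ACAN. HAPLN3 did not pass by region, at -0.10 as log2 fold change (edgeR adjusted p = 0.414). It averaged 148 CPM of the library total in anchored post and 154 in anchored middle, and 142 in unanchored post and 157 in unanchored middle. For the molded groups averaged against no mold, 2 of the 5 tested partners fell, CD44 (-0.38, edgeR adjusted p = 0.00482) and HAPLN3 (-0.28, 0.0227), and the median of the 5 was 0.07. In anchored middle against no mold, 1 of the 5 fell and 1 rose, HAS2 (0.62, edgeR adjusted p = 0.0182). In that comparison, which returns below for MATN2, MGP and COL11A1, edgeR called 1575 of the 11834 tested genes, 734 of them lower.

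All 4 thrombospondin relatives of COMP were tested, and 2 fell and 0 rose at the post. THBS3 stood at -0.47 (standard error 0.101, edgeR adjusted p = 0.0047) and THBS2 at -0.38 (standard error 0.112, adjusted p = 0.0338), and the median of the 4 was -0.34. In molded tissue 2 of the 4 rose against no mold, THBS4 with 0.68 (standard error 0.162, edgeR adjusted p = 0.00586) and THBS2 with 0.61 (standard error 0.15, adjusted p = 0.00681), where 8.04% of all tested genes were called higher, and the median of the 4 was 0.48. CILP, the paralog of CILP2, fell at the post (-0.74, standard error 0.113, edgeR adjusted p = 0.000253). MATN2, a matrilin, was the other tested gene of the 5 on that list and did not pass (-0.32, edgeR adjusted p = 0.053), and neither passed for the molded groups averaged against no mold. Against no mold, MATN2 rose in anchored middle (0.63, edgeR adjusted p = 0.00842) and CILP in unanchored middle (0.68, edgeR adjusted p = 0.0133). For unanchored middle, edgeR called 1747 of all tested genes, 852 of them lower. The cartilage matrilin genes MATN1 and MATN3 had 2 counts each over all 15 libraries, and MATN4 had 12. Of 11 other cartilage matrix proteins, 5 were tested, and 4 fell at the post (log2 fold changes -0.62 for MGP, -0.45 for FMOD, -1.15 for PRG4 and -1.45 for CLEC3A), with a median of -0.62. For the molded groups averaged against no mold, 3 of them fell, at -2.24 for CLEC3A, -1.43 for PRELP and -0.60 for PRG4. CLEC3A had 125 counts over all libraries and PRELP 144, with no-mold means of 4.34 and 3.71 CPM of the library total. Their means in the molded groups ran from 0.37 to 2.02 and from 1.46 to 1.58. Both may have passed the filter on low counts through the no-mold group alone, in which case the filter favoured a fall. By group, PRG4 fell in anchored post (-1.27) and unanchored post (-1.09) and stood at 0.02 in anchored middle and -0.07 in unanchored middle (edgeR adjusted p = 0.972 and 0.83), while MGP rose in anchored middle (0.62, edgeR adjusted p = 0.0259). Of PRG4 counts, 80.6% sat in values that are not whole, as did 54.2% of FMOD and 87.8% of THBS1 counts.

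Of 7 listed cartilage collagen genes, 5 were tested and 4 fell with a mold. Their log2 fold changes were -3.24 for COL2A1, -3.49 for COL9A1, -2.38 for COL9A2 and -2.36 for COL11A2, with a median of -2.38 for the 5. COL9A1 rests on 57 counts over all libraries. Its group means were 0.12 to 1.11 CPM of the library total in molded groups and 3.17 in no mold. It may have passed the filter on low counts through the no-mold group alone, in which case the filter favoured a fall. COL9A3, with 54 counts, was not tested. COL11A1, the other tested gene, was called higher in anchored middle against no mold (means of 1049 and 750 CPM) and in no other molded group. At the post, 1 fell, COL11A1 (-0.48, standard error 0.0946, edgeR adjusted p = 0.00237), with a median of -0.62. SOX9, the transcription factor that drives ACAN and COL2A1 in chondrocytes, fell with a mold (-0.79, standard error 0.0778, edgeR adjusted p = 5.86e-07) and stood at -0.05 between post and middle (edgeR adjusted p = 0.697). SOX5 and SOX6, its partners, did not pass in either comparison. Of 9 listed genes of enzymes that cut aggrecan or COMP and their inhibitor TIMP3, 5 were tested, 0 passed by edgeR at the post (1 at an unadjusted p under 0.05, ADAMTS1) and 1 fell with a mold, TIMP3 (-0.47, standard error 0.0847, edgeR adjusted p = 0.000631). The aggrecanase gene ADAMTS4 stood at 5.98 to 8.14 CPM of the library total as group means, and ADAMTS5 had 67 counts in all and was not tested.

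**Figure D4:**
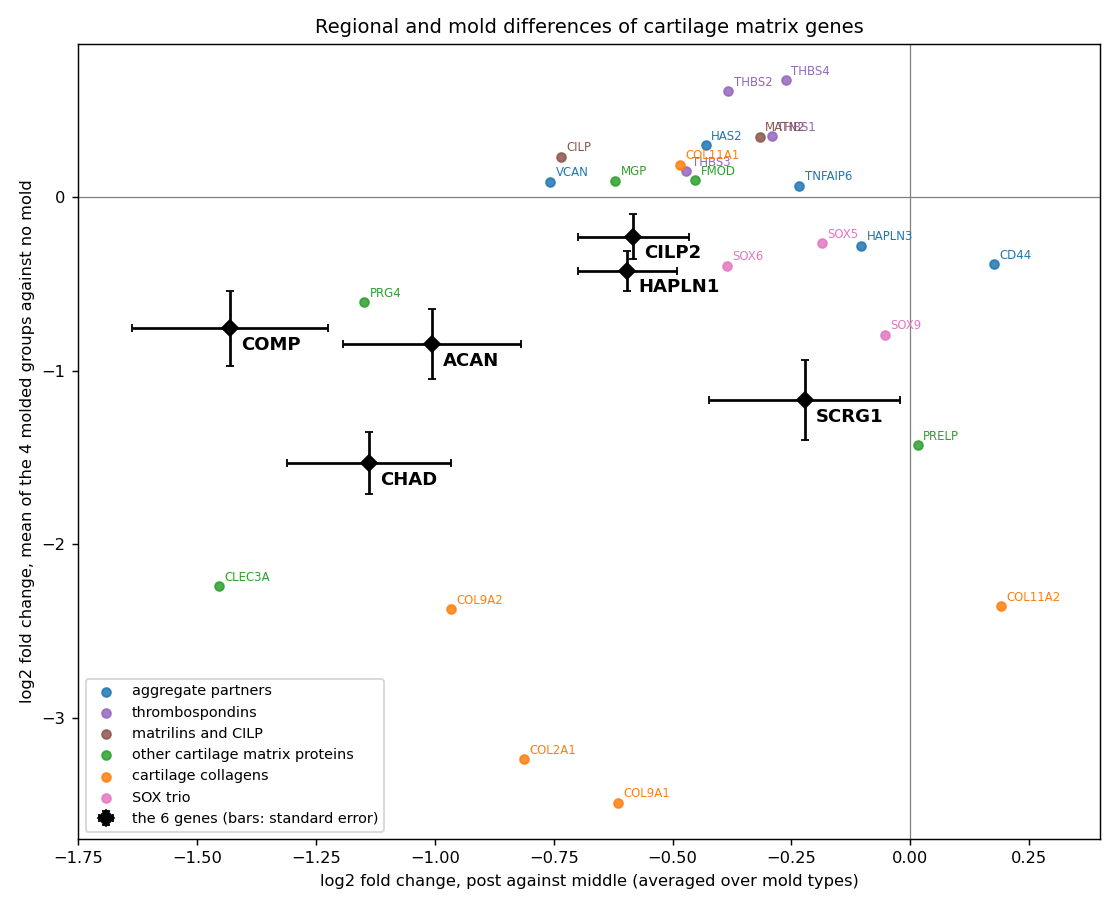
Log2 fold change of post against middle (x axis) and of the molded groups together against no mold (y axis), for the 6 genes (diamonds, bars are standard errors) and the tested genes of 6 lists (coloured points). COMP lies farthest left of the 6, CHAD is low on both axes, SCRG1 is low on the y axis with -0.22 on the x axis, and COL2A1 and COL9A1 lie at the bottom. Molded libraries enter both axes.

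Genes with the most similar pattern over the 15 libraries were named by Pearson's r of log2(CPM + 1) among 7091 genes with a mean of at least 10 CPM. The closest to ACAN was ELN, the elastin gene (r = 0.99), then COMP (0.96) and R3HDML (0.95). ELN was also closest to COMP (0.97), followed by SMOC2, a secreted calcium-binding matrix protein (0.97), and ACAN. CHAD was closest to ACAN (0.95), ELN (0.94) and DIPK1C (0.90). With the group means removed, ELN kept r = 0.96 with ACAN, 0.98 with COMP and 0.88 with CHAD, whereas DIPK1C had 0.65 with CHAD. HAPLN1 was most like CLEC3B, the gene of tetranectin (0.95), PKD1 (0.93) and P4HB, a subunit of collagen prolyl hydroxylase (0.93), and CILP2 most like MFAP4, a microfibril-associated protein (0.95), MARVELD1 (0.93) and SEC61A1, of the translocation channel (0.92). SCRG1 was closest to ADM, the adrenomedullin gene (0.95), COL2A1 (0.94) and CA9, a carbonic anhydrase (0.93), none of which was among the closest 3 of another of the 6. Rank correlations (Spearman) of SCRG1 with these were 0.73, 0.95 and 0.93, so the first place of ADM did not hold by rank. With the group means removed, r was 0.88, 0.90 and 0.92. Among the 6 themselves r ran from 0.40, for CILP2 and SCRG1, to 0.96, for ACAN and COMP.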

How the data were processed

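Per the labels' protocols, RNA was captured by oligo-dT primers carrying barcodes and molecular identifiers and the cDNA was tagmented, so reads come mainly from 3′ ends. The submitters' processing notes name MultiQC 1.33, Subread 2.1.1 with featureCounts, SAMtools 1.21 and STAR 2.7. Not given in the sources used here: the build, the annotation, the counting settings and any collapse of molecular identifiers. The authors deposited expected counts (13.5% to 16.3% of a library's nonzero values are not whole, tolerance 1e-06) and CPM for 15 libraries, and the CPM equal the count over the library total.

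Expected counts were rounded. The 92 spike-in rows were left out, genes were kept by filterByExpr of edgeR (a count of 10 scaled to library size, a total of 15), and all 15 libraries entered 1 quasi-likelihood fit with 5 group means (edgeR 4.0.16, R 4.3.3, TMM factors 0.934 to 1.05). The 11 contrasts were two-sided and adjusted over 11834 genes by Benjamini-Hochberg, with a threshold of 0.05. The standard error is the estimate over the root of F. The procedure was tested on simulated data. DESeq2 1.42.0 was an alternative. Pairs of libraries within a group had a chi-square of 2.75 to 13.0 for each degree of freedom, above counting noise, so none was taken as a second deposit. Pairs across groups ran from 1.87 to 20.99. The lowest of these, anchored middle 3 with unanchored middle 2, was more alike than any pair within a group. The members, lists and tests were chosen with earlier results of these data known. Named genes are the 6 members, the 3 nearest genes to each, and list genes that passed or define a list; HAPLN3, CD44, MATN1, MATN2, MATN3, MATN4, ADAMTS1, ADAMTS4 and ADAMTS5 were added after their values were seen.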

Additional observations from a re-analysis of the deposited data

How the results depend on the processing

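The direction and call of most values held. Over the 66 log2 fold changes, 64 kept both with DESeq2 size factors, 61 with DESeq2, 63 with a replicate block, 55 without a filter on low counts and 53 without the 3 shallowest libraries. The number of the 6 genes called moved by over 1.5 times, or left 0, in the following cases, under the replicate block and with single libraries left out. With DESeq2 it was 0 for anchored middle against no mold (1 in the main analysis). Without the filter it was 5 for unanchored post against unanchored middle (0), 1 for anchored middle against unanchored middle (0) and 3 for anchored middle against no mold (1); in that fit the prior weight was not finite, so each gene's own spread was replaced by the trend. Without the 3 shallowest libraries it was 3 for unanchored post against unanchored middle, 2 for anchored post against no mold (5) and 2 for the molded groups together (5), with fewer samples. With the compared groups alone in the fit it was 3 for anchored post against anchored middle (5), 4 for unanchored post against unanchored middle, 2 for anchored middle against no mold and 4 for unanchored middle against no mold (2), again with fewer samples.

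Leaving out 1 library gave counts of 1 to 5 for anchored post against anchored middle, 0 to 3 for unanchored post against unanchored middle, 0 to 2 for anchored middle, 2 to 6 for anchored post, 2 to 3 for unanchored middle and 5 to 6 for unanchored post against no mold, and 2 to 5 for the molded groups together.

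The labels do not say whether replicate numbers mark a shared tissue, and for no pair of groups did all 3 same-numbered pairs of libraries correlate at over 0.1, so the numbers were not used to pair samples. Over unanchored post and middle they correlated at 0.0981, 0.122 and 0.297, and each was most like its own number there (3 of 3), a hint from the data only. With the replicate block 2 genes passed in that comparison, COMP (edgeR adjusted p = 0.0141) and CHAD (0.00477), and SCRG1 stood at 0.0275; no other count of the 6 genes changed.

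Signs that turned belonged to estimates that had not passed. SCRG1 in unanchored post against unanchored middle was 0.00053 with DESeq2 size factors, 0.0137 with DESeq2 and -0.33 to 0.36 with 1 library left out. Without the 3 shallowest libraries the interaction was 0.0214 for ACAN and 0.0368 for COMP, and HAPLN1 in anchored middle against no mold was -0.17. With 1 library left out, log2 fold changes of anchored against unanchored post ran from -0.14 to 0.31 for ACAN, -0.0413 to 0.0536 for HAPLN1, -0.20 to 0.28 for CHAD, -0.12 to 0.18 for CILP2 and -0.0020 to 0.32 for SCRG1. CILP2 in anchored against unanchored middle ran from -0.0284 to 0.19. The interaction ran from -0.49 to 0.0566 for ACAN, -0.66 to 0.0428 for COMP, -0.46 to 0.05001 for CHAD and -0.22 to 0.0875 for CILP2. Anchored middle against no mold ran from -0.41 to 0.0319 for ACAN, -0.24 to 0.22 for HAPLN1, -0.0954 to 0.66 for COMP and -0.0077 to 0.27 for CILP2, and unanchored middle against no mold from -0.68 to 0.0029 for COMP and -0.10 to 0.16 for CILP2.

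Of all tested genes, the number called also moved by over 1.5 times. It was 153 with DESeq2, 272 without a filter, 148 without the shallowest libraries and 192 with the compared groups alone for unanchored post against unanchored middle (53 in the main analysis); 479 without a filter and 105 with the compared groups alone for anchored post against anchored middle (227). Without a filter it was 28, 21 and 3 for anchored against unanchored middle, for the posts and for the interaction (0 each). Without the shallowest libraries it was 411, 82, 421 and 170 for anchored middle, anchored post, unanchored middle and unanchored post against no mold (1575, 658, 1747 and 1068), and 335 for the molded groups together (1888). With 1 library left out, it ran from 3 (without unanchored middle 2) to 159 (without anchored middle 2) for unanchored post against unanchored middle, 62 (without anchored post 3) to 283 for anchored post against anchored middle and 465 (without unanchored middle 2) to 1150 for post against middle averaged (1007). It was lowest without no mold 3 for the molded groups against no mold, at 768 for anchored middle, 251 for anchored post, 790 for unanchored middle, 496 for unanchored post and 856 for all averaged. SCRG1 rests on 16 to 74 counts in a library.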
